A study of Mus musculus with 8 samples.

Results

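Plasmacytoid dendritic cells (pDCs) are the dendritic cells (DCs) that sense viral nucleic acid in endosomes and secrete type I interferon, and they stem in part from the common DC progenitors (CDPs) of bone marrow (BM). Their identity is held by the E protein Tcf4 (also called E2-2), with the ETS factor Spib and the runt factor Runx2 acting with or below it, and the inhibitor Id2 opposes E proteins and favours conventional DCs. Mature pDCs carry Siglech, Bst2 and Ccr9 at the surface, and Ly6d marks lymphoid-primed progenitors and a pDC precursor. These 7 genes of the pDC program were chosen by symbol, and all 7 of 7 were found among the 16119 genes of the count table by their Ensembl identifier in GENCODE vM21 (GRCm38). All 7 passed the filter on low counts and were among the 15837 genes tested.

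CDPs (lineage-negative cells with intermediate c-Kit and low Sca1 that carry CD115 and Flt3) were sorted from BM of C57BL/6 mice on a high fat diet (HFD, 60 kcal% fat) and of chow-fed control mice (CF, 10 kcal% fat). The labels call the HFD mice diet-induced obese (DIO) after 16 weeks on the diet and the CF mice their matched controls. The methods describe males of the C57BL/6J background and give 16 weeks as their age when bought, so the age of the mice at the sort is not clear. RNA of 50000 cells per replicate was sequenced in 4 replicates per diet, and whether a replicate was 1 mouse or a pool is not stated. The comparison of HFD with CF is the only one in the design, and p-values measure the spread between these replicates.

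The HFD libraries held 28203651 to 38969160 counts and the CF libraries 32575696 to 48409689, and the 7 pDC program genes together took 10816 to 32181 counts per library. Levels are CPM, counts relative to library size, scaled by the TMM factors of edgeR, which correct for library size and composition. The receptors of the sort were measured in all 8 libraries, with Csf1r (CD115) at 79.4 to 133 CPM and Flt3 at 88.8 to 378 CPM. HFD replicate 1 stood apart. Its 12 neutrophil markers summed to 19821 CPM against 938 to 6440 CPM in the other 7 libraries, and its Flt3, at 88.8 CPM, was the lowest of the 8. The values of the 7 genes are therefore also given without it.

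Of the 7 genes, 5 had a mean more than 1.5-fold higher in HFD CDPs, namely Ccr9, Siglech, Spib, Ly6d and Bst2, with fitted differences (HFD over CF; as log2FC below, with SE for its standard error) of 2.96-fold, 2.76-fold, 2.65-fold, 2.33-fold and 1.69-fold. The other 2, Tcf4 and Runx2, differed by 1.03-fold and 1.19-fold. By the quasi-likelihood test of edgeR with Benjamini-Hochberg adjustment over all genes tested, 0 of the 7 passed an adjusted p of 0.05, and 0% of all genes were called higher in HFD and 0.423% lower. At an unadjusted p below 0.05, 5 of the 7 were higher in HFD and 0 lower, where 3.22% of all genes were higher and 5.34% lower (of protein-coding genes, 3.71% and 1.67%). Bst2 and Ly6d did not keep this with the replicate number as a block (unadjusted p = 0.072 and 0.091 from edgeR). Neither did Bst2 without HFD replicate 2 (unadjusted p = 0.068 from edgeR). DESeq2 called 3 of the 7, all higher in HFD, where it called 0.407% of all genes higher and 3.2% lower. Under limma voom 0 of the 7 were called, and under a linear model for each gene 0. Without HFD replicate 1, edgeR called 4 of the 7 higher in HFD (Spib, Siglech, Ccr9 and Ly6d), against 0.214% of all genes. In bulk RNA, a larger share of cells that express a gene and more RNA per cell cannot be told apart.

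**Figure D1:**
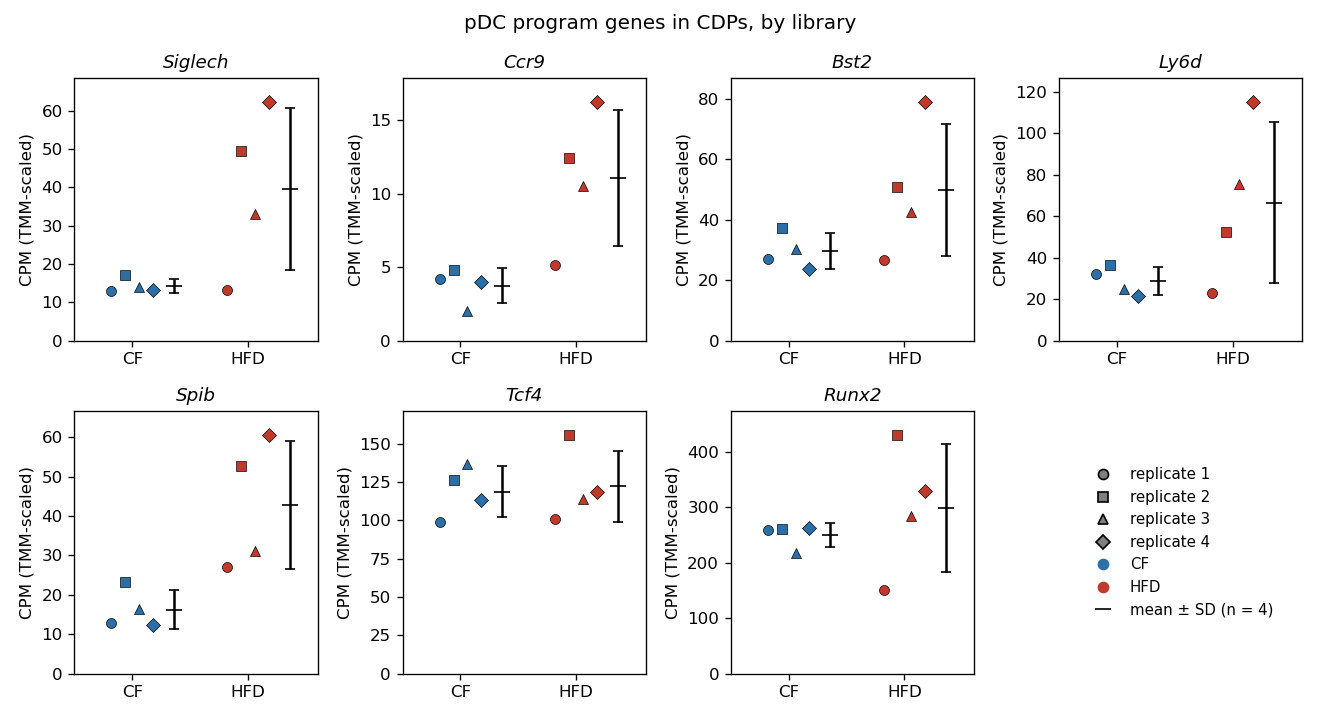
TMM-scaled CPM (y axis, linear from 0) of the 7 pDC program genes in each CF and HFD library (symbols mark the replicate), with the mean ± SD of 4 libraries beside them. In HFD, replicate 1 (circle) is the lowest for every gene shown, and replicates 2, 3 and 4 lie above all CF libraries for every gene except Tcf4.

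Siglech (ENSMUSG00000051504), a sialic acid-binding lectin that signals through the adaptor Tyrobp (DAP12), lies on the plus strand of chromosome 7 (GRCm38) from 55768178 to 55778925. It had 13.3, 49.5, 33.0 and 62.2 CPM in HFD replicates 1 to 4, and 13.02, 17.1, 13.9 and 13.3 CPM in CF replicates 1 to 4. HFD replicate 1 lay inside the CF range, and the other 3 HFD replicates were above all 4 CF replicates. The means of HFD and CF were 39.5 ± 21.2 and 14.3 ± 1.88 CPM (SD, n = 4 each), and the log2FC was 1.47 (SE 0.40, 95% interval 0.55 to 2.39, adjusted p = 0.20 from edgeR). Without HFD replicate 1 the log2FC was 1.75 (adjusted p = 0.016 from edgeR), and without HFD replicate 4 it was 1.12 (adjusted p = 0.42 from edgeR).

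Ccr9 (ENSMUSG00000029530), the receptor of the gut chemokine CCL25, lies on the plus strand of chromosome 9 from 123678439 to 123784330. It had 5.13, 12.4, 10.5 and 16.2 CPM in the 4 HFD replicates and 4.19, 4.80, 2.02 and 3.95 CPM in the 4 CF replicates. Every HFD replicate was above every CF replicate, with HFD replicate 1 only just so. The means were 11.1 ± 4.61 CPM (SD, n = 4) and 3.74 ± 1.20 CPM (SD, n = 4), log2FC 1.56 (SE 0.37, 95% interval 0.71 to 2.42, adjusted p = 0.14 from edgeR). Without HFD replicate 1 it was 1.80 (adjusted p = 0.026 from edgeR), and without HFD replicate 4 it was 1.28 (adjusted p = 0.26 from edgeR). Ccr9 had the fewest reads of the 7 genes, 64 to 668 per library, so that at its lowest count the counting error alone was 12.5%, against a spread of 32.2% between CF replicates. Its annotated exons share 269 bases with Gm17200 on the same strand and, on the other strand, 22 bases with Slc6a20a and 1932 bases with AC165425.1, which was not among the genes used here. The first 2 of these neighbours were at 1.27 to 2.44 CPM and at 0 to 4.69 CPM, so a part of the Ccr9 reads is uncertain.

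Bst2 (ENSMUSG00000046718), the tetherin that holds budding virions at the membrane and the PDCA-1 antigen by which mouse pDCs are stained, lies on the minus strand of chromosome 8 from 71534255 to 71537456. It had 26.6, 51.0, 42.5 and 78.9 CPM in HFD and 26.9, 37.4, 30.3 and 23.6 CPM in CF, replicates 1 to 4. HFD replicate 1 again fell among the CF values and the 3 others lay above them. The means were 49.8 ± 21.9 CPM (SD, n = 4) and 29.5 ± 5.92 CPM (SD, n = 4), and the log2FC was 0.75 (SE 0.30, 95% interval 0.06 to 1.44, adjusted p = 0.51 from edgeR). It was 0.96 without HFD replicate 1 (adjusted p = 0.091 from edgeR) and 0.40 without HFD replicate 4, the highest library (adjusted p = 0.97 from edgeR). Bst2 is also induced by interferon in many cell types. Of 16 interferon response genes listed, 5 were higher in HFD and 11 lower, where 59.7% of all genes were higher. Their median log2FC was -0.30, and their lowest adjusted p from edgeR was 0.66.

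Ly6d (ENSMUSG00000034634), a GPI-anchored protein of the Ly6 family, lies on the minus strand of chromosome 15 from 74762056 to 74763620. Among the 7 genes it had the widest range between HFD replicates as a ratio of highest to lowest, with 23.0, 52.6, 75.8 and 115 CPM in replicates 1 to 4, against 32.0, 36.4, 24.9 and 21.3 CPM in CF. The highest HFD value was 5.00 times the lowest, where in CF that ratio was 1.71. The means were 66.6 ± 38.9 CPM (SD, n = 4) and 28.6 ± 6.82 CPM (SD, n = 4), with log2FC 1.22 (SE 0.43, 95% interval 0.24 to 2.20, adjusted p = 0.39 from edgeR). It was 1.504 without HFD replicate 1 (adjusted p = 0.045 from edgeR) and 0.78 without HFD replicate 4 (adjusted p = 0.82 from edgeR).

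Spib (ENSMUSG00000008193), an ETS factor close to PU.1 that is used by pDCs and B cells, lies on the minus strand of chromosome 7 from 44525993 to 44532071. It was at 27.1, 52.7, 31.2 and 60.5 CPM in HFD replicates 1 to 4 and at 12.9, 23.2, 16.4 and 12.3 CPM in CF replicates 1 to 4. The groups did not overlap, and Spib and Ccr9 were the 2 of the 7 genes of which this held, where 2.58% of all genes tested lay wholly above CF and 3.58% wholly below (of protein-coding genes, 2.81% and 0.951%). The means were 42.9 ± 16.3 CPM (SD, n = 4) and 16.2 ± 4.96 CPM (SD, n = 4). Spib had the lowest p of the 7, with log2FC 1.40 (SE 0.31, 95% interval 0.70 to 2.10, unadjusted p = 0.0015, adjusted p = 0.11 from edgeR), and ranked at position 27 of the 11775 protein-coding genes tested. Leaving out each replicate in turn gave 1.15 to 1.63, with an adjusted p of 0.038 to 0.34 from edgeR, and it was called only without HFD replicate 1, where it was 1.57.

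Tcf4 (ENSMUSG00000053477), on chromosome 18, is the E protein on which pDC development depends. It had 101, 156, 114 and 118 CPM in HFD and 98.8, 127, 137 and 113 CPM in CF, replicates 1 to 4. The values of the diets were intermingled, and the means of 122 ± 23.5 CPM (SD, n = 4) and 119 ± 16.5 CPM (SD, n = 4) differed by less than their SD. The log2FC of 0.040 had a 95% interval of -0.32 to 0.40 (SE 0.16, adjusted p = 0.98 from edgeR). It was 0.12 without HFD replicate 1 (adjusted p = 0.76 from edgeR) and -0.098 without HFD replicate 2 (adjusted p = 0.89 from edgeR). Tcf4 was measured with 3151 to 4949 counts per library. At its lowest count the counting error was 1.78%, against a spread of 13.9% between CF replicates.

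Runx2 (ENSMUSG00000039153), a runt factor that pDCs need to leave the BM and that osteoblasts also use, lies on the minus strand of chromosome 17 from 44495987 to 44814797. It was at 151, 430, 285 and 330 CPM in HFD replicates 1 to 4 and at 260, 261, 218 and 263 CPM in CF replicates 1 to 4. Here HFD replicate 1 was the lowest of all 8 libraries, and the other 3 HFD replicates were above all CF replicates. The means were 299 ± 116 CPM (SD, n = 4) and 250 ± 21.7 CPM (SD, n = 4), with log2FC 0.26 (SE 0.27, 95% interval -0.37 to 0.88, adjusted p = 0.89 from edgeR). It was 0.48 without HFD replicate 1 (adjusted p = 0.21 from edgeR) and 0.027 without HFD replicate 2, its highest library (adjusted p = 0.99 from edgeR). The osteoblast lineage was hardly measured in these cells. Of 8 osteoblast markers, Sp7, Bglap, Bglap2, Alpl and Ibsp were not among the genes of the count table used here, and the other 3 summed to 1.65 to 11.9 CPM per library. Runx2 shares 519 exonic bases with the antisense gene Runx2os1, which was at 0.71 to 1.70 CPM.

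**Figure D2:**
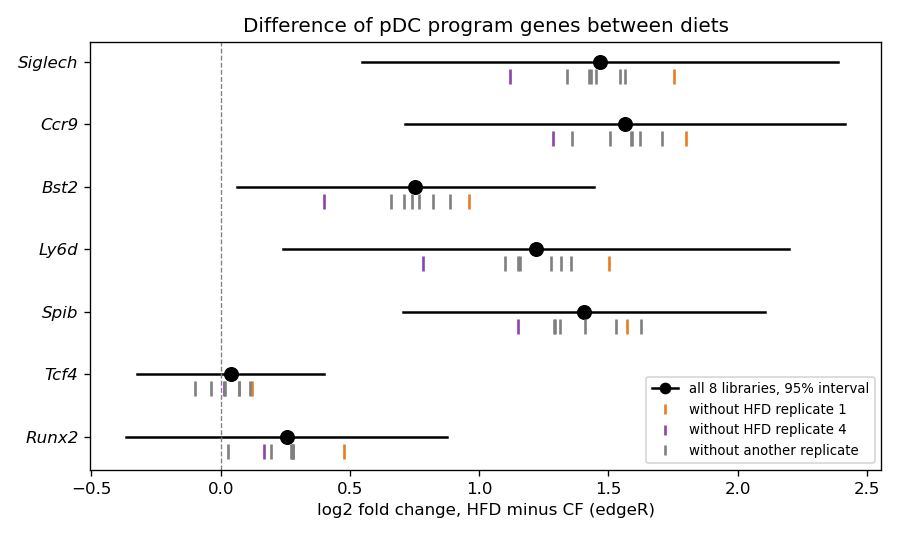
Log2 fold change, HFD minus CF (x axis), of each pDC program gene from edgeR with its 95% interval (black), and the values with each replicate left out in turn (ticks). The intervals of Siglech, Ccr9, Bst2, Ly6d and Spib lie above 0 and those of Tcf4 and Runx2 include it, and leaving out HFD replicate 4 gave the lowest value of the first 5 genes.

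The spread between HFD replicates was wider than between CF replicates for each of the 7 genes. HFD libraries also differed more over all genes tested, with correlations of log2 CPM of 0.882 to 0.969 between HFD replicates and 0.946 to 0.969 between CF replicates. The share of all genes with a wider spread in HFD was not computed, so the wider spread is not shown to be particular to these 7. Relative to the mean, the SD of Siglech was 53.6% in HFD and 13.2% in CF, that of Ly6d 58.3% and 23.8%, and that of Runx2 38.8% and 8.68%. Spib and Tcf4 were closer, with 38.0% against 30.6% and 19.2% against 13.9%. This difference in spread was not tested. HFD replicate 1 was the lowest HFD library in 7 of the 7 genes, as it was for 34.0% of the protein-coding genes. HFD replicate 4 was the highest of all 8 libraries in 5 of the 7 (Siglech, Ccr9, Bst2, Ly6d and Spib), as it was for 19.4% of the protein-coding genes, and HFD replicate 2 in the other 2. Without HFD replicate 1, 6 of the 7 genes lay wholly above CF, all but Tcf4, where 6.4% of all genes did.

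Promoter letters are shown for Siglech, Ccr9 and Bst2, the surface genes that the RefSeq table holds. RefSeq promoters on GRCm38.p6 were found for 5 of the 7 genes, and stretches of 240 bases, from 250 to 11 bases before the RefSeq start, were searched on both strands. The letters were CAGGTG and CAGCTG (E proteins), GAGGAA (PU.1 and Spi-B), TGTGGT (RUNX) and GAAA repeated after any 2 bases (interferon response element). Capitals mark every match, on either strand, and all else is in lower case.
Siglech, chr7:55767934-55768173, plus strand: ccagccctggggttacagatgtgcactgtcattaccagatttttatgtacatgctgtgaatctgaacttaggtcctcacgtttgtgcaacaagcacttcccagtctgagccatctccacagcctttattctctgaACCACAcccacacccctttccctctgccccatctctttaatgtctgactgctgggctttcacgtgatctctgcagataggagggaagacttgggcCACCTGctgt
Ccr9, chr9:123766961-123767200, plus strand: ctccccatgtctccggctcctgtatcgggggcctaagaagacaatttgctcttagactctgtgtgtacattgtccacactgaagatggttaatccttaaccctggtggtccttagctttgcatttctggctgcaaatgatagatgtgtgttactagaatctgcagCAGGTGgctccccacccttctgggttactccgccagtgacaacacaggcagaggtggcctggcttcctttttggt
Bst2, chr8:71537483-71537722, minus strand: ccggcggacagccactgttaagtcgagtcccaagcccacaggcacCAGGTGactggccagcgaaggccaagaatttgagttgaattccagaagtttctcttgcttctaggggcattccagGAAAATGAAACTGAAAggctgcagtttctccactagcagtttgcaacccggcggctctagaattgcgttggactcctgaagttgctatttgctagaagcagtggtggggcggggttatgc

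Each of these 3 stretches held CAGGTG once (in Siglech as its reverse complement CACCTG). Those of Spib and Runx2, searched but not shown, did not hold it. Of 32851 promoter stretches of that length, 16.6% hold it. Bst2 also held 2 overlapping matches of the interferon response element, which 2.87% of all stretches hold. Siglech and Runx2 held TGTGGT once each, as its reverse complement ACCACA, against 13.6% of all. The stretch of Spib held none of these letters, and CAGCTG and GAGGAA, which 12.4% and 22.3% of all stretches hold, were in none of the 5. The RefSeq start of Ccr9 lies inside the GENCODE gene, whose first exons are upstream. A match describes the letters of the window and shows no binding, which was not measured here.

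Levels of different genes were compared as CPM per kilobase of annotated exon. In CF the order was Ly6d (38.5), Bst2 (32.7), Runx2 (28.3), Spib (5.65), Tcf4 (4.34), Siglech (4.23) and Ccr9 (0.36). The ranges over CF libraries of Ly6d and Bst2 overlapped (28.6 to 48.9 and 26.1 to 41.5), as did those of Bst2 and Runx2 (24.6 to 29.8). Spib (4.30 to 8.07), Tcf4 (3.61 to 5.00) and Siglech (3.85 to 5.05) overlapped as well, while the gaps between Runx2 and Spib and between Siglech and Ccr9 (0.20 to 0.47) were larger than the spread. In HFD the order by mean was Ly6d (89.6), Bst2 (55.1), Runx2 (33.8), Spib (14.9), Siglech (11.7), Tcf4 (4.46) and Ccr9 (1.08). Siglech and Tcf4 thus stood in the other order, although HFD replicate 1 had 3.93 of Siglech, within the HFD range of Tcf4 (3.69 to 5.69). The exon lengths join all annotated transcripts, 27382 bases for Tcf4 and 10260 for Ccr9, which lowers the values of both.

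**Figure D3:**
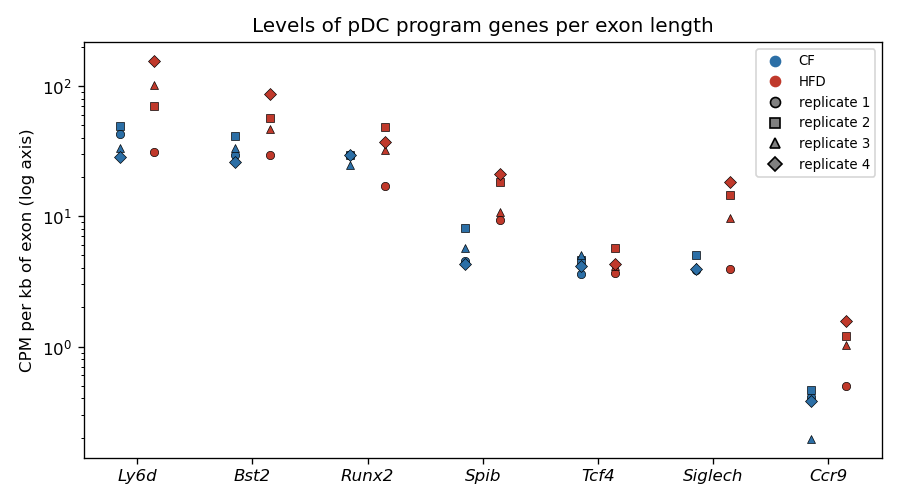
CPM per kilobase of annotated exon (y axis, log scale) of the 7 pDC program genes in each library, ordered by the CF mean, with CF in blue, HFD in red and symbols marking the replicate. Ly6d, Bst2 and Runx2 have higher means than the other 4 genes in both diets, and Ccr9 lies lowest.

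The ratio of Siglech to Tcf4, taken within each library and so free of scaling between libraries, was 0.131, 0.318, 0.290 and 0.526 in HFD replicates 1 to 4 and 0.132, 0.135, 0.101 and 0.117 in CF replicates 1 to 4. Replicates 2, 3 and 4 of HFD were above every CF library in this ratio, and HFD replicate 1 was among the CF values. The ratio of Siglech to Spib was 0.74 to 1.07 in 7 of the 8 libraries, with 0.49 in HFD replicate 1. Siglech and Spib were thus in like proportion except in that library.

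The genes nearest in pattern were sought for the 3 members with the largest spread over the 8 libraries. The measure was the root mean square difference of centred log2 CPM, over the other protein-coding genes (6659 for Siglech and Ly6d, 6660 for Ccr9) with a mean of at least 10 CPM. A smaller value is a closer pattern, but genes were not scaled to a like spread, so genes that vary little also come out close. Nearest to Siglech were Ptprf (0.25), a receptor tyrosine phosphatase, Atp1b1 (0.32), a sodium pump subunit, and Ly6d (0.35). Nearest to Ccr9 were again Ptprf (0.32) and Atp1b1 (0.40), with Siglech (0.38) between them. Nearest to Ly6d were Siglech (0.35), Cox6a2 (0.36), a subunit of cytochrome c oxidase, and Bst2 (0.37). Ptprf was at 16.5, 40.3, 24.6 and 44.3 CPM in HFD and 9.41 to 14.2 CPM in CF, with log2FC 1.45 (edgeR, adjusted p = 0.097). Among the members themselves the closest pair was Tcf4 and Runx2 (0.33), and the most distant was Tcf4 and Ccr9 (0.92).

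**Figure D4:**
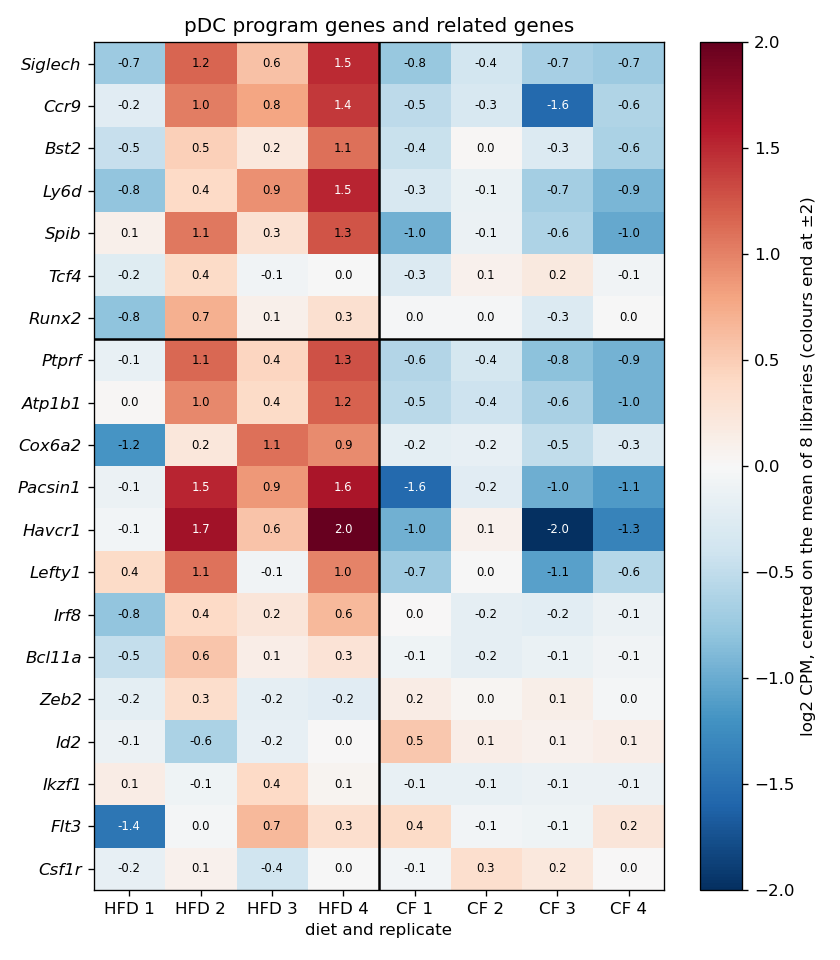
Log2 CPM of the 7 pDC program genes (above the line) and of genes near them in pattern or function (below it), each centred on its mean over the 8 libraries, with libraries in columns and red above and blue below the mean. Siglech, Ccr9, Ly6d, Spib, Ptprf, Atp1b1 and Pacsin1 are above their mean in HFD replicates 2 to 4 and below it in all 4 CF replicates, whereas Tcf4, Zeb2 and Csf1r stay within 0.5 of theirs.

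Other genes that pDCs express were described by a list of 30, of which 29 were in the table and tested, Klk1 not being among them. Of the 29, 26 were higher in HFD, with a median log2FC of 0.57, where 59.7% of all genes were higher and the median of all genes was 0.055. At an unadjusted p below 0.05, 11 of the 29 were higher and 0 lower, where 3.22% and 5.34% of all genes were. At an adjusted p below 0.05, 0 were called in edgeR. Atp1b1 was at 32.4, 62.4, 41.5 and 72.7 CPM in HFD and 16.5 to 24.1 CPM in CF, with log2FC 1.33 (SE 0.25, adjusted p = 0.075 from edgeR). Pacsin1, an adaptor of endocytosis, was at 2.89 to 9.93 CPM in HFD and 1.03 to 2.67 CPM in CF, with 2.06 (SE 0.43, adjusted p = 0.097 from edgeR), and neither gene overlapped between the diets. Havcr1 (TIM-1) had 2.19 and the TGF-beta family ligand Lefty1 1.30 (edgeR, adjusted p = 0.18 and 0.26), from at most 6.89 and 1.76 CPM. Without HFD replicate 1, 18 of the 29 were higher at an unadjusted p below 0.05, where 4.79% of all genes were. The count was 6 without HFD replicate 2, HFD replicate 4 or CF replicate 4 (2.92%, 1.75% and 2.15% of all genes), 7 without CF replicate 1 or 3 (2.53% and 2.11%), 11 without HFD replicate 3 (3.35%) and 12 without CF replicate 2 (3.44%).

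Partners and antagonists of Tcf4 were described by a further list. Of 20 transcription factors and co-regulators tested, 12 were higher in HFD and 8 lower, where 59.7% of all genes were higher, with a median log2FC of 0.033. In edgeR 0 were called (at an unadjusted p below 0.05, 2 were higher and 1 lower, where 3.22% and 5.34% of all genes were). Id2, which binds E proteins and blocks them, was at 28.2, 19.8, 27.3 and 30.7 CPM in HFD and 44.6, 33.7, 32.6 and 33.5 CPM in CF. All HFD replicates lay below all CF replicates, with log2FC -0.45 (SE 0.16, adjusted p = 0.42 from edgeR). Irf8, which DC progenitors require, was at 251, 569, 509 and 674 CPM in HFD and 372 to 432 CPM in CF (0.34, adjusted p = 0.83 from edgeR). Bcl11a, an activator of Tcf4, was at 155 to 314 CPM in HFD and 188 to 204 CPM in CF (0.29, adjusted p = 0.80 from edgeR), and for both genes HFD replicate 1 was the lowest of the 8 libraries and the other HFD replicates the highest 3. With each replicate left out, Irf8 ranged from 0.12 (without HFD replicate 4) to 0.56 (without HFD replicate 1) and Bcl11a from 0.13 (without HFD replicate 2) to 0.45 (without HFD replicate 1). Zeb2, a repressor of Id2, had -0.11, Ikzf1 (Ikaros) 0.27, Nfil3 0.29 and the conventional DC factor Zbtb46 -0.34, with adjusted p from 0.55 to 0.92 in edgeR. With each replicate left out, Zeb2 ranged from -0.27 (without HFD replicate 2) to -0.064 (without HFD replicate 1).

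Signalling genes of the pDC were described by 2 lists. Of 13 genes of endosomal nucleic acid sensing, 10 were higher and 3 lower, where 59.7% of all genes were higher. Their median log2FC was 0.080, and at an unadjusted p below 0.05 there were 0 in edgeR. The lowest p among them belonged to Pld3, an endosomal nuclease (0.51), the interferon receptor subunit Ifnar1 (0.23) and the kinases Irak1 (0.36) and Irak4 (0.13), with adjusted p of 0.73 to 0.89. With each replicate left out, Pld3 ranged from 0.29 to 0.74, Ifnar1 from 0.13 to 0.34, Irak1 from 0.23 to 0.62 and Irak4 from 0.017 to 0.19. Of 9 genes that carry signals of Siglech and of related receptors, 8 were higher (59.7% of all genes), with a median of 0.20. Pik3ap1 (BCAP), an adaptor for PI3 kinase, had the smallest spread of these, at 39.7, 42.8, 39.0 and 43.1 CPM in HFD and 28.9, 30.3, 32.5 and 30.6 CPM in CF. Its groups did not overlap, with log2FC 0.43 (SE 0.087, adjusted p = 0.088 from edgeR). Blnk had 0.31 and Syk 0.20 (adjusted p = 0.88 and 0.85 from edgeR). Blnk was 0.045 without HFD replicate 3 and 0.54 without HFD replicate 1, and Syk was 0.00089 without HFD replicate 1. Tyrobp, the adaptor of Siglech itself, had 0.20 (adjusted p = 0.90 from edgeR).

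Markers of other cells moved with some of these libraries. The 12 neutrophil markers, all tested, summed to 19821, 3473, 1254 and 938 CPM in HFD replicates 1 to 4 and to 1917, 6440, 5988 and 5864 CPM in CF, so the library with the most neutrophil RNA had the least of all 7 pDC program genes in HFD. CF replicate 1, with 1917 CPM of these markers, had less Siglech (13.02 against 13.3 CPM), Tcf4 and Runx2 than CF replicate 4, with 5864 CPM. CF replicate 1 had more Ly6d (32.0 against 21.3 CPM), Bst2, Spib and Ccr9 than CF replicate 4. Spib, Ly6d, Bst2 and Tcf4 are also used in the B lineage. The 12 B cell markers, all tested, had 11 higher in HFD, 7 of them at an unadjusted p below 0.05, with 0 called, where 59.7% of all genes were higher and 3.22% at that p. The 7 became 4 without CF replicate 3 or 4. They summed to 1320, 630, 680 and 487 CPM in HFD and 330 to 568 CPM in CF. Their highest sum was thus in HFD replicate 1, which had the lowest value of each pDC program gene among the HFD replicates but more Spib and Ccr9 than any CF replicate. Their lowest HFD sum was in replicate 4, where Siglech was highest. Among them Ighm was the most abundant (387 to 728 CPM in HFD and 261 to 412 CPM in CF), and the defining Pax5 was at 4.54 to 38.9 CPM over the 8 libraries. The part of these cells in the differences was not tested.

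**Figure D5:**
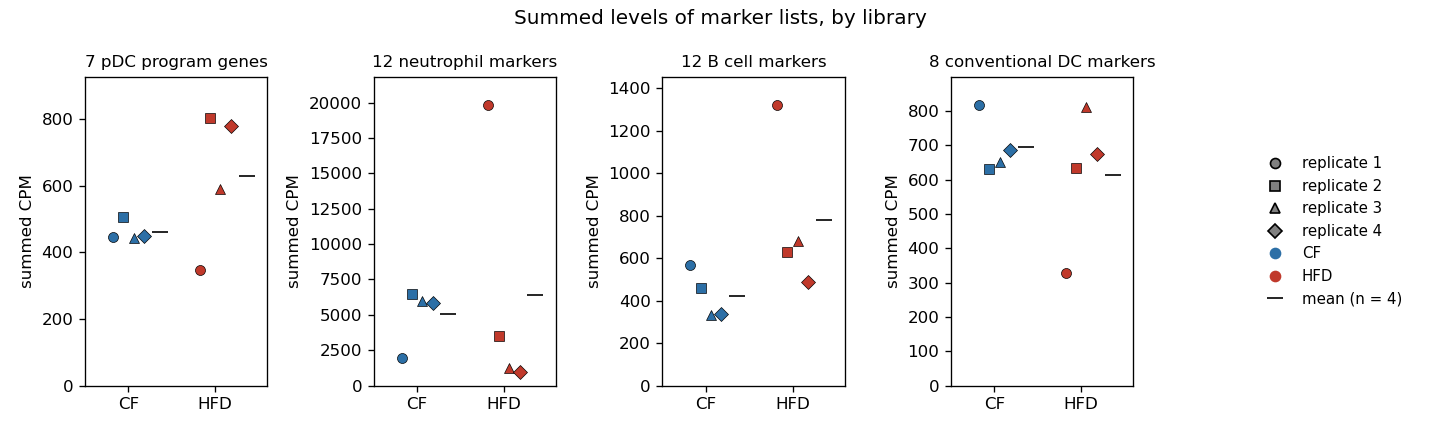
Summed TMM-scaled CPM (y axis, linear from 0) of the 7 pDC program genes and of neutrophil, B cell and conventional DC markers in each CF and HFD library, with the mean of 4 libraries as a bar. HFD replicate 1 (circle) is the lowest of the 8 libraries for the pDC program genes and conventional DC markers and the highest for neutrophil and B cell markers.

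Of 8 conventional DC markers tested, 1 was higher in HFD (Itgax, 0.54, adjusted p = 0.68 from edgeR) and 7 lower, where 59.7% of all genes were higher. The median log2FC of the 8 was -0.36. At an unadjusted p below 0.05 there were 0 in either direction, and the lowest adjusted p was 0.61 from edgeR. Their sum, like that of the pDC program genes, was lowest in HFD replicate 1, at 329 CPM against 635 to 812 CPM in the other HFD replicates and 630 to 817 CPM in CF. Without that library 2 were higher and 6 lower, with a median of -0.27. The most abundant of them, Wdfy4, was at 170 to 311 CPM in HFD and 245 to 360 CPM in CF. Of 6 surface genes listed for the progenitor stage, of which Cd34 and Il7r are not in the gate that the labels give, 2 were higher in HFD, Ly6a (Sca1) at 0.38 and Il7r at 0.48, and 4 lower. Kit had log2FC -0.17, Cd34 -0.30, Flt3 -0.076 and Csf1r -0.24, with adjusted p from 0.75 to 0.98 in edgeR over the 6 genes. Early lymphoid markers, which lymphoid-primed progenitors share with Ly6d, had 6 of 6 higher, where 59.7% of all genes were, with a median of 0.37 and 0 at an unadjusted p below 0.05 in edgeR. The most abundant, Dntt, was highest in HFD replicate 3, at 356 CPM, where Ly6d was at 75.8 CPM. Against the same share, erythroid markers had 7 of 7 higher in HFD, with a median of 0.87, and plasma cell markers 4 of 4, with a median of 1.24 beside 1.22 for the 7 pDC program genes. Of these 11 markers, Mzb1 had an unadjusted p below 0.05 in edgeR and did not overlap between the diets, and 0 were called. Mzb1, like Dntt of the early lymphoid markers, is also in the list of other pDC genes and was counted there as well. Without HFD replicate 1, 3 of 7 erythroid markers were higher (median -0.0025) and 3 of 4 plasma cell markers (median 0.30). Of 12 neutrophil markers 0 were then higher (median -1.44), where 11 were with all libraries (median 0.34). Of 7 monocyte markers 1 was higher without that library (median -0.48) and 3 with all libraries (median -0.13). In the same setting 11 of 12 B cell markers (median 0.57), 6 of 6 early lymphoid markers (median 0.50) and all 7 pDC program genes (median 1.504) were higher. The lists summed to 57.1 to 323 CPM for 7 erythroid markers (most abundant Hbb-bs, 15.9 to 76.3 CPM), 174 to 547 CPM for 7 monocyte markers (F13a1, 71.1 to 218 CPM), 10.6 to 28.4 CPM for the 4 T and NK cell markers tested (Nkg7, with Trac and Ncr1 not in the table) and 18.4 to 74.1 CPM for 4 plasma cell markers (Sdc1, with Tnfrsf17 not in the table).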

How the data were processed

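RNA of CDPs was measured in 8 libraries, 4 per diet. The authors deposited raw read counts per gene in 1 table. They aligned reads with HISAT2 to GRCm38 after cutadapt and FastQC (submitters' processing notes), kept uniquely mapped pairs and counted them with StringTie on GENCODE comprehensive genes; versions, annotation release and strand setting are not given in the sources used here. The columns share a prefix and were matched to samples by their sample number. Names, positions and exon lengths came from GENCODE vM21, in which 16067 of 16119 identifiers were found.

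Counts were filtered by filterByExpr, scaled with TMM and tested with the quasi-likelihood method of edgeR 4.0.16 (R 4.3.3, robust options on) with the diet as the only term. The study's methods name Ballgown, which works on FPKM, so edgeR took its place for counts. Benjamini-Hochberg adjustment covered all 15837 genes tested, at a threshold of 0.05. A standard error is the log2 fold change divided by the root of F. Log2 CPM used a prior count of 2. Every gene of the table reached at least 29 counts in some library. The fit was tested on simulated data. No set test was run.

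The 7 genes, the lists, which were written from general knowledge, and the rule for named genes were chosen with earlier results of these data known. The lists overlap. Among the shared genes, Mzb1 and Dntt are in the other pDC genes and in the plasma cell and early lymphoid markers. Il7r and Flt3 are in the progenitor surface genes and in the early lymphoid and conventional DC markers. Zbtb46 is in the partners of Tcf4 and in the conventional DC markers. Named were the 7 genes, the 4 genes of lowest p in each pDC list, Irf8, Id2, Bcl11a, Zeb2, Flt3, Csf1r, Kit, Cd34, the genes nearest in pattern and the most abundant gene of each marker list. A gene that the rule names is not reported here. Tyrobp, Itgax, Pax5, Ly6a, Il7r and Mzb1 were named after their values were seen. Alternatives were RLE factors, library size alone, DESeq2 1.42.0, limma 3.58.1 voom, a linear model on log2(CPM + 1), no filter, at least 1 CPM in 4 libraries, protein-coding genes alone, a block for the replicate number, each replicate left out, and replicate 1 of both diets left out. Counts and medians over lists without a replicate were added after seeing the data. Figures were drawn with matplotlib 3.10.9.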

Additional observations from a re-analysis of the deposited data

Results flagged for a closer look

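In 8 of 92 groups of 4 libraries looked at, 1 library lay far from the other 3, and chance gives about 1 in 20. Of the pDC program genes this held for Runx2 in CF, where replicate 3 had 218 CPM and the others 260 to 263 CPM, and for the 7 genes summed in CF, where replicate 2 had 506 CPM and the others 442 to 451 CPM. Id2 in CF was highest in replicate 1, at 44.6 CPM (32.6 to 33.7 CPM in the others). Zeb2 in HFD was highest in replicate 2, at 274 CPM (185 to 189 CPM). Syk in HFD was highest in replicate 1, at 209 CPM (127 to 136 CPM). HFD replicate 1 was flagged for Syk alone, and its neutrophil markers, its Flt3 and its pDC program genes were not flagged by this rule. Ifnar1 in CF was highest in replicate 2, at 59.4 CPM (56.7 to 57.0 CPM), and Irak1 in CF in replicate 4, at 43.4 CPM (23.2 to 24.8 CPM). The neutrophil markers in CF were lowest in replicate 1, which summed to 1917 CPM (5864 to 6440 CPM in the others).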

How the results depend on the processing

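The log2 fold changes of Siglech, Ccr9, Bst2, Ly6d, Spib and Runx2 were above 0 under all 18 alternatives. That of Tcf4 was negative without HFD replicate 2 (-0.098) and without CF replicate 1 (-0.039), and at most 0.12 with another replicate left out. It was 0.24 when scaled by library size only, a setting in which all genes had a median of 0.25 instead of 0.055. The adjusted p over the alternatives ranged from 0.00085 to 0.69 for Spib, 0.0030 to 0.72 for Ccr9, 0.0095 to 0.83 for Siglech, 0.045 to 0.999 for Ly6d and 0.091 to 0.999 for Bst2. Of the 7 genes, DESeq2 called 3 (Spib, Ccr9 and Siglech), library size alone called 1 (Spib) and leaving out replicate 1 of both diets called 4, and with each replicate left out the count was 0 to 4. Over all genes, edgeR called 0 higher and 67 lower. With library size alone 10 were higher, under DESeq2 64 higher and 503 lower, and without replicate 1 of both diets 38 higher and 350 lower. The linear model for each gene and protein-coding genes alone called 0 lower. With each replicate left out, 0 to 34 were higher and 0 to 166 lower. With the replicate number as a block, 0 were lower and 0 of the 7 genes were called. Same-numbered replicates of the diets did not deviate together (correlations across genes of -0.44 to -0.078). The labels do not say whether the numbers pair them, and these correlations cannot settle it. Zeb2 was 0.097 with library size alone, and without replicate 1 of both diets Irak4 was -0.039 and Syk -0.046. Lefty1 was removed by the filter of 1 CPM in 4 libraries and has no value there. The cause of these shifts was not tested.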
